A study of Rattus norvegicus with 12 samples.

Results

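The family described here is the voltage-gated sodium and calcium channels and the pacemaker channels, read as RNA in neonatal rat ventricular myocytes (NRVMs), the heart muscle cells of newborn Sprague-Dawley rats kept in culture. Members were chosen by symbol alone: every gene whose symbol begins with Cacn or Hcn and a further letter or digit, or with Scn and a digit. This gave 37 of the 18469 genes of the table. Of these, 27 had enough counts to be tested in at least 1 pairwise comparison, 24 of them in all 4, and 10 were tested in none.

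The 12 libraries form 4 groups of 3. In siNeg the cells received a negative control siRNA and no further treatment. In siNeg.PE the same control siRNA was followed by phenylephrine (PE), which activates α1-adrenergic receptors and drives hypertrophic growth. In siSlc25a26 the cells received an siRNA to Slc25a26, the mitochondrial carrier of S-adenosylmethionine, without PE. In siSlc25a26.PE that siRNA was followed by PE. According to the labels, PE was given for 36 h, starting 12 h after transfection. All 4 groups were thus transfected, and no untransfected cells were included. The submitters' design text calls the replicates of each group independent and biological. It names no separate cultures or litters behind them, so p-values measure the spread between these libraries.

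Sodium channels open first in a heartbeat and carry the fast upstroke of the action potential. A pore-forming α subunit does this work, and small β subunits adjust its gating and its amount at the membrane. L-type calcium channels carry the calcium that triggers contraction, and are built from an α1 pore with a cytoplasmic β subunit and an extracellular α2δ subunit. T-type calcium channels open at more negative voltages, and the HCN channels open on hyperpolarization to carry the pacemaker current. Both are prominent in the sinoatrial node and in fetal and newborn ventricle, and are sparse in the healthy adult ventricle.

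Library totals of estimated counts ran from 24770972 to 28709049 per library. Scaled by these unadjusted totals, 3 counts corresponded to 0.104 to 0.121 CPM. The CPM given for genes are counts scaled by library totals after adjustment with a TMM factor per library. The range for 3 counts is therefore on a different scale from the CPM of genes. Slc25a26 itself was at 29.4 to 33.7 CPM in siNeg and 14.7 to 15.7 CPM in siSlc25a26. It was at 86.9 to 114 CPM in siNeg.PE and 98.2 to 104 CPM where the label was siSlc25a26.PE. The log2 difference between the PE groups was -0.01 (edgeR adjusted p = 0.969). The targeted transcript therefore did not differ detectably between the PE groups, and every direction given below for siSlc25a26.PE is that of the libraries so labelled. Cardiomyocyte markers were abundant in every library. The 10 genes summed to 30820 to 32653 CPM in siNeg and 42359 to 44007 in siNeg.PE. In siSlc25a26 they summed to 29631 to 34077 CPM and in siSlc25a26.PE to 46848.5 to 50828. PE in siNeg upregulated 5 of these 10 (12.4% of all genes were called higher) and down-regulated 0, with 2 log2 values negative. The 10 fibroblast markers summed to 21833 to 23906 CPM in siNeg, 11721 to 12195 in siNeg.PE, 12360 to 13907 in siSlc25a26 and 8616 to 9420 in siSlc25a26.PE. Col1a1 and Col3a1 made up most of these sums. Of the 10 fibroblast markers PE in siNeg down-regulated 5 (8.24% of all genes were called lower) and left 5 not called. Of the 10 log2 values 4 were positive (Pdgfra 0.37, Dcn 0.27, Postn 0.14 and Lum 0.04). Without PE, siSlc25a26 had 7 of the 10 lower than siNeg (7.2% of all genes) and 0 higher. Under PE, 5 were lower (8.1% of all genes) and 1 higher. Of 8 mural and smooth muscle markers 5 were lower and 0 higher without PE, and 3 were lower and 1 higher under PE. PE in siNeg had 5 of these 8 lower and 2 higher. Of 7 tested macrophage markers PE in siNeg had 4 lower and 0 higher. In siSlc25a26 without PE 4 of 7 macrophage markers were also lower and 0 higher, and under PE 1 of 6 was lower and 0 higher. Of 12 neuronal and glial markers 11 were in the table, and 10 of these were under 1 CPM in each group (summed 1.81 to 2.6 CPM). The 10 interferon-stimulated genes summed to 8043 to 8710 CPM in siSlc25a26 and 4960 to 5467 in siSlc25a26.PE, against 171 to 271 in both siNeg groups. What these shifts contributed to the channel results was not tested. In RNA from whole cultures, fewer cells of a type and less RNA per cell cannot be told apart.

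Levels between genes are compared as FPKM, which divides by gene length. Among the members described here, the γ subunit gene Cacng6 had the highest level in siNeg, at 64.6 to 72.6 FPKM. The pacemaker channel Hcn2 (29.7 to 34.6 FPKM) overlapped with the T-type pore Cacna1g (28.5 to 35.9). Next came a run in which each range overlapped that of its neighbour, namely Cacna1c, the cardiac L-type pore (20.9 to 26.2), Hcn4 (20.8 to 26.1), Cacnb2 (20.5 to 24.0), Scn4b (19.02 to 22.98), Cacnb3 (18.1 to 19.8) and the T-type pore Cacna1h (16.5 to 19.2). The 2 α2δ subunits Cacna2d1 (6.95 to 14.4) and Cacna2d2 (7.60 to 8.63) came next. The remaining members with a level in each library, namely Scn2b, Cacnb1, Cacna1a, Scn1a, Cacna1b and Scn3b, were under 2.4 FPKM in siNeg.

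**Figure D1:**
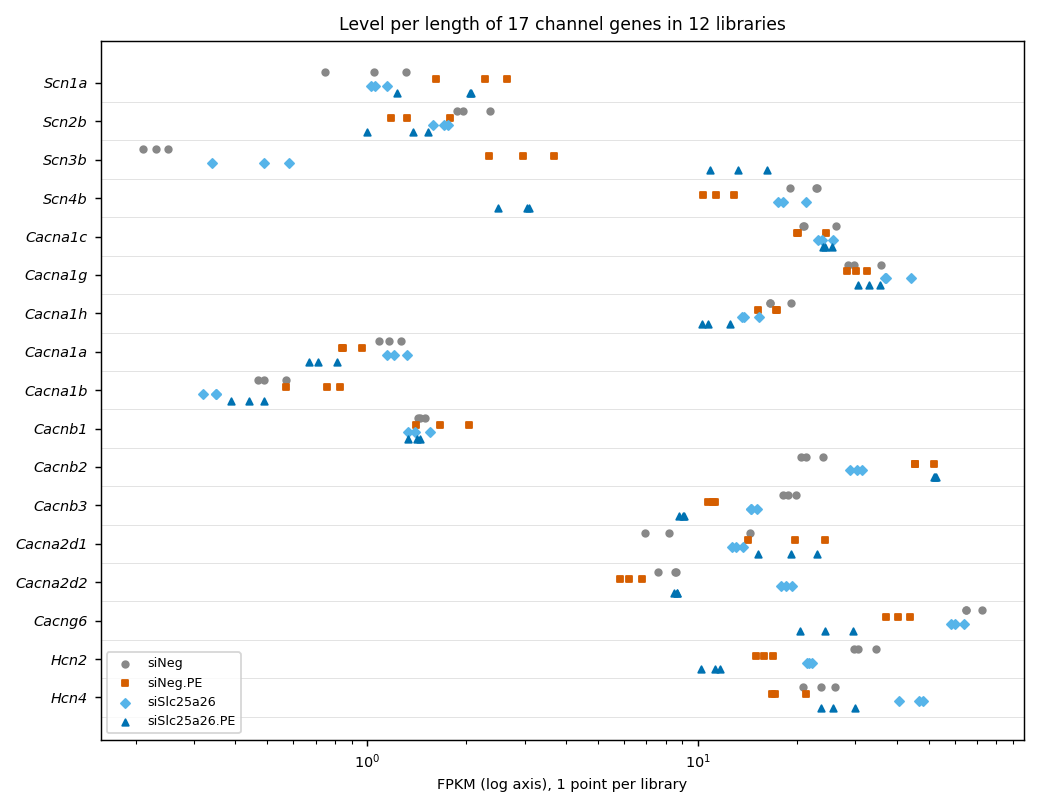
FPKM on a log axis (x) of 17 members with a mean count of at least 100 (y), with 1 point per library and a colour and marker per group. Cacng6 lies farthest to the right in siNeg, and Scn3b spans the widest range, from 0.21 to 16.3 FPKM.

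Cacna1c held 98.0% ± 0.5 (SD, n = 3) of the summed FPKM of the L-type pores in siNeg and 95.6% ± 0.6 in siNeg.PE. Cacng6 was the only one of 5 γ subunits that was tested. The 10 untested members had at most 12 counts in any library. Among them were Scn10a and Scn3a (sodium pores), Cacna1e (R-type pore) and Cacnb4, Cacna2d3, Cacng4, Cacng5, Cacng7 and Cacng8 (auxiliary subunits). Several of these are best known from neurons.

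RefSeq promoters on the rat assembly GRCr8 were at hand for 17 of the 27 tested members (20 promoters, some genes having several starts). Those of 3 members that changed with PE are shown, Scn4b and Hcn2, which were down-regulated, and Cacnb2, which was upregulated. Each is the 250 bases before the start on the gene's own strand, with every match to the GC box GGGCGG, on either strand, in capitals. They lie at chr8:54343623-54343872 (plus strand), chr7:10639458-10639707 (minus strand) and chr17:82472965-82473214 (plus strand, the first of 2 Cacnb2 starts).
Scn4b: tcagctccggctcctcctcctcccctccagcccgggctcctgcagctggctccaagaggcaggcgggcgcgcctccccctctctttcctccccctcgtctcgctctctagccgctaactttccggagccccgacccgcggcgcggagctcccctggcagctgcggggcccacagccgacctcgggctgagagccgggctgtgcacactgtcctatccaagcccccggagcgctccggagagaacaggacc
Hcn2: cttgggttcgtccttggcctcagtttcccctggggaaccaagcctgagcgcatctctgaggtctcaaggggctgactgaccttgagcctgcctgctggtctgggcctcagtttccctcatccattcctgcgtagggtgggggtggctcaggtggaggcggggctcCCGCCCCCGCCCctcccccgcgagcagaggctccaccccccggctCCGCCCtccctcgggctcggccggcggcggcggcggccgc
Cacnb2: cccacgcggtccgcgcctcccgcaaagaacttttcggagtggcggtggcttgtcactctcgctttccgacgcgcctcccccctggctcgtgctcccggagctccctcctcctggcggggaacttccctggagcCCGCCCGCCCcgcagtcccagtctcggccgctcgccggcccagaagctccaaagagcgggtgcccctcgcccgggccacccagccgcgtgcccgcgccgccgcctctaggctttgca
A GC box was in 13 of the 20 member promoters and in 30.5% of all 33469 rat promoters of the same length. The AP-1 motif TGANTCA was in 0 of 20 (6.3% of all), the GATA motif AGATAA in 1 of 20 (10.3% of all) and the CArG box in 0 of 20 (1.5% of all), all read on both strands. Of the 3 promoters of Cacna2d1 2 overlap, so the 20 are not independent, and Scn3b and Hcn4 are named without a promoter here.

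PE changed members in both directions. A gene was called upregulated or down-regulated at a fold change above 1.5 with an edgeR adjusted p-value under 0.05. In siNeg, PE upregulated 5 of 25 tested members (12.4% of all 13719 tested genes were called higher) and down-regulated 5 (8.24% of all genes). The members' median log2 fold change was -0.20, against 0.00 over all tested genes. In the libraries with the Slc25a26 siRNA, PE upregulated 7 of 25 (10.1% of all genes) and down-regulated 6 (10.4%), with a median of -0.22. Among the 7 was Hcn3, which passed the count filter only in the 2 pairwise comparisons that hold siSlc25a26.PE, its highest group. Its call was lost in 8 of 14 alternatives. These 2 PE comparisons share no library. Scn3b, Cacna1s, Cacnb2, Scn1a and Cacna2d1 were upregulated in both, 4 were down-regulated in both, Scn4b, Hcn2 and Cacng6 among them, and 0 members were called in opposite directions.

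The siRNA comparisons called fewer members. Without PE, siSlc25a26 stood above siNeg for 3 of 25 members (8.92% of all genes) and below it for 3 (7.2%), with a median of -0.08. Under PE, the libraries labelled siSlc25a26.PE stood above siNeg.PE for 2 of 26 (7.71%) and below it for 5 (8.1%), with a median of -0.21. The siRNA and PE comparisons share control libraries, so their values are given side by side only.

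**Figure D2:**
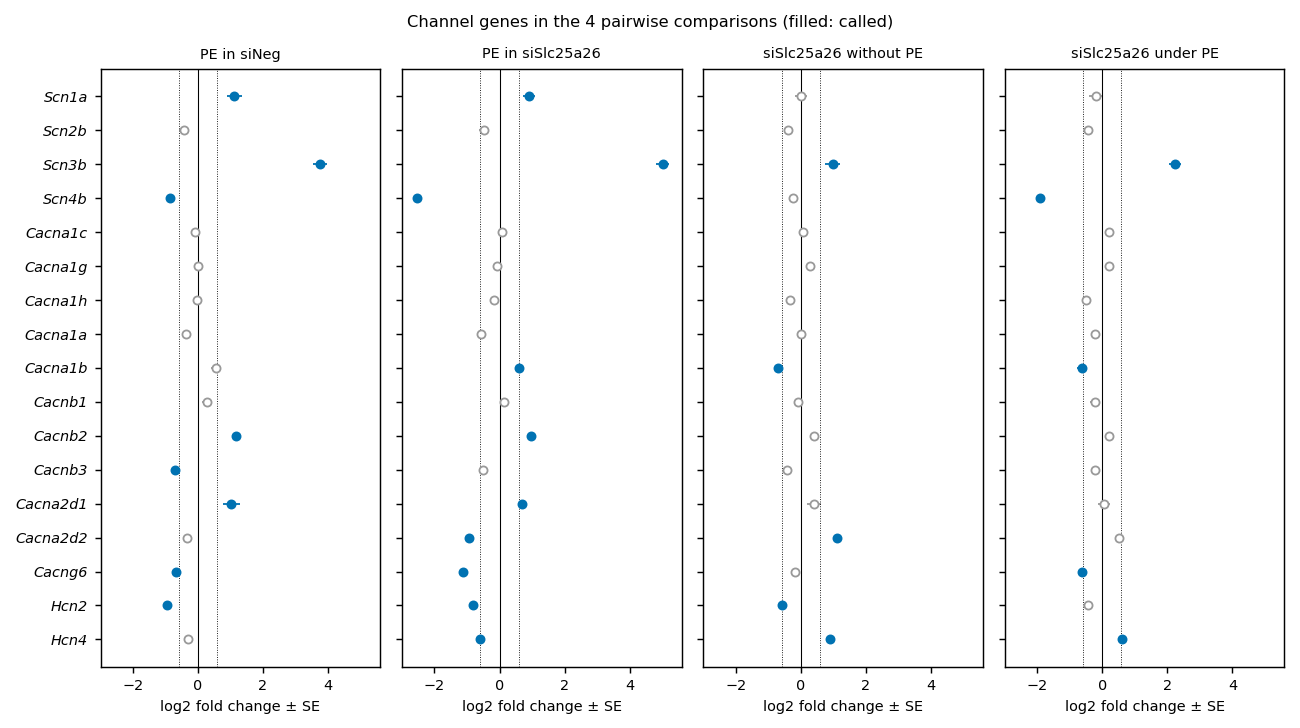
Log2 fold changes (x) with their standard errors for 17 members with a mean count of at least 100 (y), in 4 pairwise comparisons; filled points are called and dotted lines mark a 1.5-fold change. Scn3b has the largest rise under PE in both backgrounds, at 3.75 and 5.02, and Cacna1c, Cacna1g and Cacna1h stay near 0 with PE.

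PE upregulated Scn3b, which encodes the sodium channel subunit β3, and down-regulated Scn4b, which encodes β4. Scn3b was barely present without PE, at 0.919, 0.857 and 0.778 CPM in siNeg, and stood at 11.6, 13.9 and 8.85 CPM in siNeg.PE. The groups were far apart, by 13.4-fold (log2 3.75, SE 0.21, edgeR adjusted p = 1.27e-05). In siSlc25a26 it was at 1.76, 1.999 and 1.25 CPM, each above every siNeg library (log2 0.97, SE 0.24, edgeR adjusted p = 0.0111). That call was lost without siSlc25a26 replicate 2, at an edgeR adjusted p of 0.0530. In siSlc25a26.PE it reached 44.2, 52.7 and 64.5 CPM. This was 32.5-fold above siSlc25a26 (log2 5.02, SE 0.19, edgeR adjusted p = 1.96e-07) and 4.72-fold above siNeg.PE (log2 2.24, SE 0.18, edgeR adjusted p = 2.84e-05).

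Scn4b went the other way. It stood at 98.1, 81.4 and 96.1 CPM in siNeg and 50.5, 45.6 and 55.4 in siNeg.PE, 0.550 times the siNeg level (log2 -0.86, SE 0.10, edgeR adjusted p = 3.12e-04). In siSlc25a26 it was at 71.4, 86.1 and 75.3 CPM, overlapping siNeg (log2 -0.24, SE 0.09, edgeR adjusted p = 0.0521). In siSlc25a26.PE it was at 14.5, 14.02 and 11.3 CPM, below every other library. That was 0.173 times siSlc25a26 (log2 -2.53, SE 0.11, edgeR adjusted p = 3.63e-07) and 0.265 times siNeg.PE (log2 -1.92, SE 0.11, edgeR adjusted p = 2.68e-06). Scn2b, the β2 gene that neighbours Scn4b on the chromosome, was not called in any comparison. Its log2 fold changes were -0.44 and -0.49 with PE in the 2 backgrounds and its level 3.71 to 8.06 CPM throughout.

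**Figure D3:**
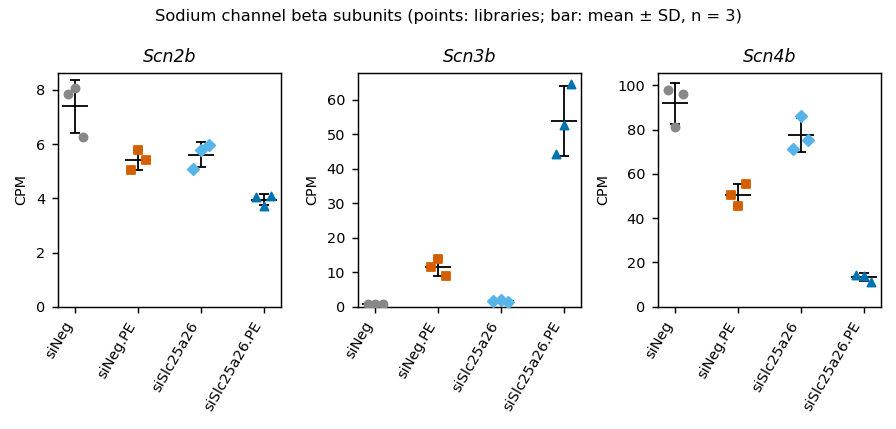
CPM (y) of 3 sodium channel β subunit genes in each library (points) by group (x), with the mean and SD of 3 libraries. Scn3b is below 2.1 CPM without PE and above 44 CPM in all siSlc25a26.PE libraries, where Scn4b is at 11.3 to 14.5 CPM.

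Scn1a, a sodium pore best known from neurons, was at 5.81, 8.26 and 10.2 CPM in siNeg and 13.3, 18.1 and 20.8 in siNeg.PE (log2 1.11, SE 0.23, edgeR adjusted p = 0.00470), and was upregulated by PE. In siSlc25a26 it was at 8.63, 7.80 and 7.99 CPM, and in siSlc25a26.PE at 10.5, 17.1 and 17.4 (log2 0.90, SE 0.18, edgeR adjusted p = 0.00275). The PE groups did not overlap their controls, but the spread inside them was wide. The giant sarcomere gene Ttn also spread widely, at 788, 720 and 1160 CPM in siNeg and 1338, 1726 and 2154 in siNeg.PE. Whether the 2 spreads have one source was not tested.

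The sodium pores Scn2a, Scn4a, Scn7a and Scn8a were low and lay between 6 and 39 counts in every library. The libraries labelled siSlc25a26.PE had 13.4 to 17.4 counts of Scn2a against 29.2 to 32.1 in siNeg.PE (log2 -0.97, edgeR adjusted p = 0.0138). Scn7a had 20 to 24 counts in siSlc25a26 and 28 to 39 in siNeg (log2 -0.74, edgeR adjusted p = 0.0314). Both calls were weak: that of Scn2a was lost in 4 of 15 alternatives and that of Scn7a in 10 of 15, among them the removal of either siNeg replicate 1 or 3 or of any siSlc25a26 library. The call of Scn2a was lost without siNeg.PE replicate 2. Scn4a was not called. Scn8a passed the count filter in only 2 pairwise comparisons, PE in siNeg and siSlc25a26 without PE, and was not called in them.

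Of the L-type calcium channel pores, PE changed a minor one, Cacna1s, and the main cardiac pore Cacna1c was not called. Cacna1c was at 227, 232 and 282 CPM in siNeg and 219, 215 and 262 in siNeg.PE. The groups overlapped, at a log2 fold change of -0.09 (SE 0.11, edgeR adjusted p = 0.511). Cacna1c was at 243, 254 and 274 CPM in siSlc25a26 and 282, 261 and 257 in siSlc25a26.PE, with overlap again (log2 0.07, SE 0.06, edgeR adjusted p = 0.350).

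Cacna1s, the L-type pore of skeletal muscle, was upregulated by PE from a low level. It had 35 to 63 counts per siNeg library and 112 to 140 per siNeg.PE library, 2.63-fold higher (log2 1.40, SE 0.20, edgeR adjusted p = 9.52e-04). It had 24 to 39 counts in siSlc25a26 and 133 to 166 in siSlc25a26.PE, 5.07-fold higher (log2 2.34, SE 0.21, edgeR adjusted p = 2.48e-05). Acta1, the skeletal muscle actin gene that PE is known to induce, was also upregulated by PE in siNeg, by 3.18 on the log2 scale. Other genes of skeletal muscle did not go with it. Cacnb1, the skeletal muscle β subunit, was not called (0.27). Of 7 skeletal muscle markers 5 were in the table, and all 5 were under 1 CPM in siNeg and in siNeg.PE. The third L-type pore, Cacna1d, had 13 to 43 counts. It was called lower in siSlc25a26.PE than in siNeg.PE (log2 -0.87, edgeR adjusted p = 0.0496), a call lost in 9 of 15 alternatives, including the removal of any siNeg.PE library or of siSlc25a26.PE replicate 1 or 2.

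The T-type pores were not called in any comparison. Cacna1g was at 230, 222 and 276 CPM in siNeg, 245, 225 and 254 in siNeg.PE, 272, 275 and 332 in siSlc25a26 and 299, 270 and 252 in siSlc25a26.PE. With PE its log2 fold change was -0.01 (SE 0.09) in siNeg and -0.08 (SE 0.09) in siSlc25a26. Cacna1h was at 129, 129 and 148 CPM in siNeg, 141, 121 and 137 in siNeg.PE, 101, 102 and 117 in siSlc25a26 and 107, 89.1 and 85.3 in siSlc25a26.PE. Its libraries with the Slc25a26 siRNA lay below the matching siNeg libraries with and without PE, by -0.50 and -0.34 on the log2 scale (edgeR adjusted p = 0.00293 and 0.00635), under the 1.5-fold threshold. Cacna1i had at most 12 counts. Of the pairwise comparisons it passed the count filter only under PE, which holds siSlc25a26.PE, its highest group (9 to 12 counts). It had 2, 2 and 11 counts in siNeg.PE, and was not called (log2 1.05, edgeR adjusted p = 0.204). Only without siNeg.PE replicate 3, the library with 11, was it called, so that 1 library at these low counts decides the call.

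The neuronal P/Q-type and N-type pores were present at low levels. Cacna1a was at 9.995, 9.46 and 10.8 CPM in siNeg, 8.71, 7.61 and 7.28 in siNeg.PE, 10.8, 9.67 and 9.93 in siSlc25a26 and 7.49, 6.05 and 6.53 in siSlc25a26.PE. It was not called, with PE values of -0.36 and -0.58 on the log2 scale. Cacna1b was at 4.08, 4.60 and 4.11 CPM in siNeg and 5.14, 6.53 and 6.92 in siNeg.PE. It was at 2.71, 2.56 and 2.64 CPM in siSlc25a26, below siNeg in every library (log2 -0.69, SE 0.13, edgeR adjusted p = 0.00288), and at 4.40, 3.91 and 3.61 in siSlc25a26.PE. Cacna1b was thus lower with the Slc25a26 siRNA without PE and, in the libraries so labelled, under PE (log2 -0.63, SE 0.15, edgeR adjusted p = 0.00947), the latter lost without siNeg.PE replicate 3 (-0.57) or siSlc25a26.PE replicate 3 (-0.55). PE raised it in siSlc25a26 (log2 0.61, SE 0.14, edgeR adjusted p = 0.00634), a call lost without siSlc25a26.PE replicate 1 (0.53). In siNeg its PE value of 0.54 (edgeR adjusted p = 0.0169) was under the fold threshold.

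The auxiliary calcium channel subunits changed with PE where Cacna1c was not called. Cacnb2, the main cardiac β subunit, which carries the pore to the membrane and whose promoter is printed above, was at 70.8, 74.4 and 81.7 CPM in siNeg and 165, 163 and 183 in siNeg.PE. That was 2.26-fold higher (log2 1.18, SE 0.08, edgeR adjusted p = 2.29e-05). In siSlc25a26 it was at 95.9, 104 and 102 CPM, and in siSlc25a26.PE at 197, 194 and 192, 1.96-fold higher (log2 0.97, SE 0.05, edgeR adjusted p = 8.87e-07). Cacnb3, another β subunit, was at 50.2, 47.2 and 45.4 CPM in siNeg and 30.0, 28.2 and 28.4 in siNeg.PE (log2 -0.72, SE 0.07, edgeR adjusted p = 1.03e-04). It was at 34.7, 34.8 and 37.1 CPM in siSlc25a26 and 25.3, 23.7 and 24.3 in siSlc25a26.PE. All siSlc25a26.PE libraries were below all siSlc25a26 libraries, but the log2 fold change of -0.52 (SE 0.06, edgeR adjusted p = 1.45e-04) was under the threshold. Cacnb1, the skeletal muscle form, was at 4.31 to 7.02 CPM and was not called.

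The α2δ subunits, which raise the number of channels at the surface, split. Cacna2d1 was at 40.9, 51.6 and 84.0 CPM in siNeg and 89.6, 124 and 145 in siNeg.PE (log2 1.03, SE 0.27, edgeR adjusted p = 0.0135). The highest siNeg library lay just under the lowest siNeg.PE library, and the call was lost without siNeg replicate 2 (edgeR adjusted p = 0.0595). It was at 75.7, 79.4 and 77.5 CPM in siSlc25a26 and 99.7, 122 and 148 in siSlc25a26.PE (log2 0.69, SE 0.12, edgeR adjusted p = 0.00145). Without siSlc25a26.PE replicate 3 that value was 0.53, under the fold threshold, and without siNeg replicate 3 Cacna2d1 was called higher in siSlc25a26 than in siNeg (log2 0.73). As for Scn1a, its spread within groups ran beside that of Ttn, which was at 1248, 1618 and 2492 CPM in siSlc25a26.PE.

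Cacna2d2 was highest in siSlc25a26. It was at 44.9, 39.2 and 43.8 CPM in siNeg and 95.6, 88.4 and 92.3 in siSlc25a26, 2.16-fold higher (log2 1.11, SE 0.06, edgeR adjusted p = 2.10e-06). It was at 31.9, 33.0 and 35.9 CPM in siNeg.PE and 48.9, 46.9 and 47.7 in siSlc25a26.PE, where the siRNA value under PE of 0.52 (SE 0.07, edgeR adjusted p = 3.79e-04) was under the fold threshold. PE down-regulated it in the siSlc25a26 background (log2 -0.93, SE 0.05, edgeR adjusted p = 1.73e-06), whereas the siNeg value of -0.34 (edgeR adjusted p = 0.0100) was under the fold threshold. Cacng6 was down-regulated by PE in both backgrounds. It was at 129, 131 and 144 CPM in siNeg, 84.4, 77.1 and 89.0 in siNeg.PE, 111, 116 and 126 in siSlc25a26 and 62.8, 51.8 and 45.8 in siSlc25a26.PE. Its PE changes were -0.69 (SE 0.07, edgeR adjusted p = 2.30e-04) and -1.12 (SE 0.10, edgeR adjusted p = 2.97e-05), and under PE the libraries labelled siSlc25a26.PE were lower by -0.63 (edgeR adjusted p = 0.00186), or -0.52 without siSlc25a26.PE replicate 3, which was under the threshold.

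The 2 abundant pacemaker channels differed in their siRNA response. Hcn2, whose promoter with its GC boxes is printed above, was at 71.8, 83.9 and 73.3 CPM in siNeg and 40.1, 37.2 and 41.4 in siNeg.PE. That was 0.519 times siNeg (log2 -0.95, SE 0.08, edgeR adjusted p = 5.85e-05). It was at 51.1, 49.3 and 51.0 CPM in siSlc25a26 and 30.6, 28.8 and 26.4 in siSlc25a26.PE, with PE changing it by -0.80 (SE 0.07, edgeR adjusted p = 1.70e-05). Hcn2 was also lower in siSlc25a26 than in siNeg (log2 -0.60, SE 0.07, edgeR adjusted p = 1.55e-04), a change close to the fold threshold that was not called in 5 of 15 alternatives. Without siNeg replicate 2 it was -0.54, and without siSlc25a26 replicate 2 it was -0.58.

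Hcn4, the main sinoatrial pacemaker channel, was higher with the Slc25a26 siRNA. It was at 90.3, 80.0 and 98.8 CPM in siNeg and 171, 148 and 178 in siSlc25a26, 1.85-fold higher (log2 0.89, SE 0.09, edgeR adjusted p = 8.76e-05). It was at 67.1, 67.4 and 82.0 CPM in siNeg.PE and 125, 104 and 96.3 in siSlc25a26.PE, 1.51-fold higher in the libraries so labelled (log2 0.60, SE 0.11, edgeR adjusted p = 0.00228). PE down-regulated it in siSlc25a26 (log2 -0.60, SE 0.10, edgeR adjusted p = 9.81e-04). In siNeg the groups overlapped and the PE value was -0.31 (SE 0.11, edgeR adjusted p = 0.0409), under the fold threshold. The latter 2 calls sat at the threshold: that under PE was lost in 6 of 15 alternatives (0.49 without siSlc25a26.PE replicate 1, 0.55 without siNeg.PE replicate 1 or 2), and that of PE in siSlc25a26 in 4 of 15 (0.52 to 0.58 in size without siSlc25a26 replicate 1 or 3 or siSlc25a26.PE replicate 2 or 3).

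Hcn3 had 2 to 14 counts, and passed the count filter only in the 2 pairwise comparisons that hold siSlc25a26.PE, its highest group (12 to 14 counts). It was called higher there than in siSlc25a26, which had 5 to 8 counts (log2 1.20, edgeR adjusted p = 0.0202), and the call was lost in 8 of 14 alternatives, among them each removal of siSlc25a26 replicate 1 or 3 or siSlc25a26.PE replicate 1 or 2.

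**Figure D4:**
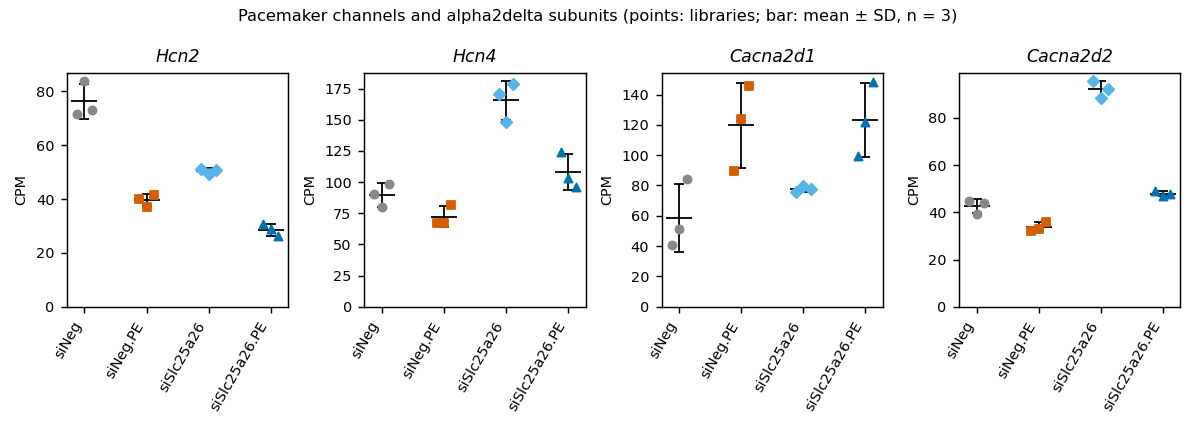
CPM (y) of Hcn2, Hcn4, Cacna2d1 and Cacna2d2 in each library (points) by group (x), with the mean and SD of 3 libraries. Hcn4 and Cacna2d2 are highest in siSlc25a26, at 148 to 178 and 88.4 to 95.6 CPM, and Hcn2 is highest in siNeg, at 71.8 to 83.9 CPM.

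The ratio of paralogs, taken as FPKM, summarises these shifts. The pairs were picked after their values were seen and carry no test. Hcn4 over Hcn2 was 0.75 ± 0.13 (SD, n = 3) in siNeg, 1.15 ± 0.10 in siNeg.PE, 2.07 ± 0.16 in siSlc25a26 and 2.39 ± 0.16 in siSlc25a26.PE. Hcn2 was thus the higher of the 2 in every siNeg library and Hcn4 in every library of the other groups. Cacnb2 over Cacnb3 was 1.17 ± 0.15 in siNeg, 4.30 ± 0.32 in siNeg.PE, 2.06 ± 0.10 in siSlc25a26 and 5.82 ± 0.12 in siSlc25a26.PE. Scn3b over Scn4b was 0.0107 ± 0.0014 in siNeg, 0.266 ± 0.086 in siNeg.PE, 0.0247 ± 0.0051 in siSlc25a26 and 4.79 ± 1.56 in siSlc25a26.PE, where Scn3b exceeded Scn4b in each library. Cacna2d1 over Cacna2d2 was 1.19 ± 0.45, 3.05 ± 0.58, 0.71 ± 0.05 and 2.22 ± 0.46 in the same order. Cacna1g over Cacna1h was 1.80 ± 0.07 and 1.83 ± 0.07 without and with PE in siNeg, and 2.75 ± 0.10 and 2.95 ± 0.11 with the Slc25a26 siRNA.

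**Figure D5:**
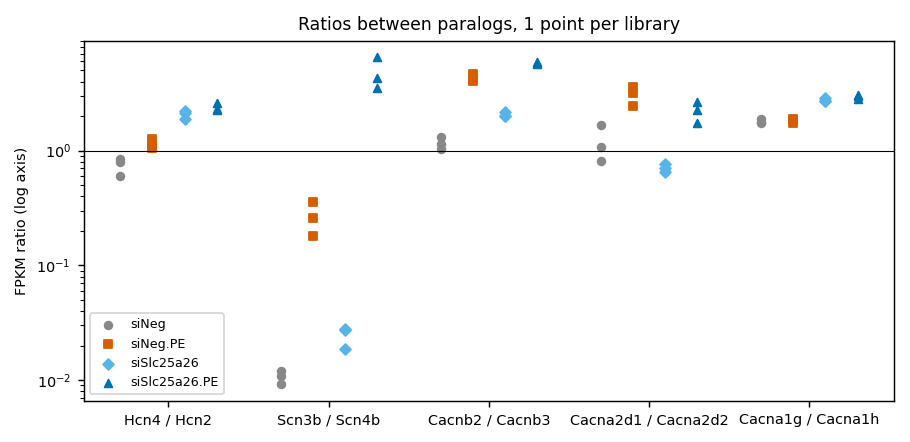
FPKM ratio of paralogs on a log axis (y) for 5 pairs (x), with 1 point per library and a colour and marker per group; the line marks equal levels. Scn3b over Scn4b spans 0.0092 to 6.53, the widest range shown.

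The change with PE differed between the 2 siRNA backgrounds for 3 of 27 members by the interaction test on all 12 libraries. It was more positive in siSlc25a26 for 1 (2.16% of all 14097 genes) and more negative for 2 (3.34%). Scn4b had the largest of these differences, at -1.69 on the log2 scale (SE 0.16, edgeR adjusted p = 1.37e-04), and was called in all 20 alternatives. Scn3b differed by 1.25 (SE 0.35, edgeR adjusted p = 0.0402), a call lost in 10 of 20 alternatives. It was lost when any 1 siNeg library was left out, without siNeg.PE replicate 1 or 3, siSlc25a26 replicate 1 or 3 or siSlc25a26.PE replicate 2 or 3, at edgeR adjusted p of 0.0530 to 0.123, and with limma-voom (0.132). Cacna2d2 differed by -0.61 (SE 0.09, edgeR adjusted p = 0.00190), near the threshold of 1.5-fold, and fell under it in 5 of 20 alternatives (-0.55 without siNeg replicate 2 or siNeg.PE replicate 3, -0.57 without siSlc25a26 replicate 1). Since Slc25a26 was not lower in the libraries labelled siSlc25a26.PE than in siNeg.PE, these are differences between labelled groups. Interferon-stimulated genes differed between the same groups, as given above, and their part was not tested.

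FPKM values shifted the whole table in the siSlc25a26 PE comparison. On log2(FPKM + 0.1) the median over all genes there was -0.17 in place of 0.00, and 27.1% in place of 49.2% of the called genes were higher. Of the members 5 were then called higher and 8 lower, with Cacna2d1 (0.52) and Cacna1b (0.29) no longer called and Cacnb3 (-0.70) and Cacna1a (-0.68) called lower. Relative to that shift the directions of Scn3b, Cacnb2, Scn4b, Hcn2 and Cacng6 were as in the counts.

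Genes chosen as linked to these channels were read from 4 lists by role. Their counts stand against 12.4% of all genes called higher and 8.24% lower for PE in siNeg, 10.1% and 10.4% for PE in siSlc25a26, 8.92% and 7.2% for the siRNA without PE and 7.71% and 8.1% under PE, and nothing is read from them about the lists. Of 15 tested sodium channel partners, PE upregulated 3 and down-regulated 0 in siNeg, namely Sntb1 (log2 1.38), a syntrophin scaffold, Pkp2 (1.07), a desmosomal protein, and Ank3 (0.66), an ankyrin that anchors membrane proteins. In siSlc25a26 PE upregulated 2 and down-regulated 3, with Sntb1 (1.75) and Pkp2 (1.13) higher and Gja1 (-0.90), the main ventricular connexin, and Fgf12 (-0.80), a cytoplasmic modulator of sodium channel gating, lower. Without PE, siSlc25a26 had 3 higher, Ank3 (0.82), Dsg2 (0.77) and Pkp2 (0.61). Under PE, 2 were higher and 2 lower in the libraries labelled siSlc25a26.PE, Fgf12 (-1.17), Ank3 (0.68), Pkp2 (0.67) and Fgf13 (-0.60). Fgf12 was at 12.5 to 16.0 CPM in both siNeg groups and at 5.94 to 6.10 CPM in siSlc25a26.PE.

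Of 18 tested L-type partners and inhibitors, PE in siNeg upregulated 3 and down-regulated 1. Rrad, a small GTPase that binds β subunits and inhibits L-type current, was at 262 to 269 CPM in siNeg and 116 to 122 in siNeg.PE (log2 -1.15, edgeR adjusted p = 4.06e-06). Its relative Gem had a log2 fold change of 0.73, the anchoring protein Akap5 1.07 and the sodium-calcium exchanger Slc8a1 0.83. In siSlc25a26 PE upregulated 5 and down-regulated 2, with Rrad at -1.90, Jph2, which holds the L-type channel near the calcium store, at 1.05 and Slc8a1 at 0.98. The other lower gene, Sorcs2 at -0.83, is counted only because it was put on the list. Its action on L-type channels was not tested. Without PE, siSlc25a26 had Stac2 (-1.54), an adaptor of L-type channels, lower and Akap5 (0.80) higher, and under PE 1 gene was higher, Bin1 (0.67).

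Pacemaker partners and conduction factors were read in the same way, against the same shares of all genes. Of 8 tested pacemaker partners PE in siNeg upregulated 2 and down-regulated 3, led by Flna (-1.10), Pde4d (0.89), Cav1 (-0.84) and Mrvi1 (-0.74). In siSlc25a26 2 of 10 were higher and 2 lower, Adcy8 (-1.75), Popdc2 (0.89), Adcy1 (-0.84) and Bves (0.69). Without PE 3 of 11 were lower in siSlc25a26, Flna (-1.02), Cav1 (-0.88) and Mrvi1 (-0.68), and under PE 1 of 8 was lower, Adcy1 (-0.95). Of 14 tested sinoatrial and conduction factors PE down-regulated 4 and upregulated 0 in siNeg and down-regulated 6 and upregulated 0 in siSlc25a26. The fast conduction connexin Gja5 was at 79.3 to 105 CPM in siNeg, 37.0 to 42.3 in siNeg.PE, 171 to 213 in siSlc25a26 and 34.3 to 48.8 in siSlc25a26.PE (PE changes of -1.19 and -2.20). The connexin Gjd3 had PE changes of -2.09 and -3.12, Irx3 -0.67 and -1.30 and Etv1 -0.62 and -0.90. Without PE, 2 of these 14 were higher in siSlc25a26 than in siNeg, Gja5 (1.13) and Gjd3 (2.05). The other 12 were not called, and the median log2 fold change of the 14 was 0.13. Under PE, 1 was higher, Gjd3 (1.02), 0 were lower and 13 were not called.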

How the data were processed

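RNA of NRVMs was sequenced by BGI in 12 libraries. The submitters' processing notes name HISAT, Bowtie2 and the build Rnor_6.0; versions, counter, annotation and strandedness are not given in the sources used here. The authors deposited estimated counts per gene (20.8% to 21.9% of values per library not whole), which were rounded. The authors also deposited FPKM, which were used for levels between genes; Scn2b FPKM did not scale with its counts across libraries. CPM scale counts to a common library total. Groups came from the sample titles.

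Each pairwise comparison was fitted on its 6 libraries, and the difference between PE effects on all 12, with edgeR 4.0.16 in R 4.3.3 (TMM, filterByExpr, quasi-likelihood F-test, Benjamini-Hochberg over all tested genes). Calls needed a fold change above 1.5 and adjusted p under 0.05. SE came from the F statistic. The procedure was tested on simulated data. Tested members are named, except items that are not reported here; those with a mean count of at least 100 have a value per library. Called partners are named, at most 4 per list and comparison. Members, lists and tests were chosen with earlier results of these data known. Alternatives used DESeq2 1.42.0, limma 3.58.1 (voom, log2(FPKM + 1), log2(FPKM + 0.1)), other scaling and filters (none, or 10 counts in every library), a replicate block, 1 joint fit of all groups, calls without a fold threshold and leaving out each library. Floors of 3 counts cover counting error only. Reads shared between channel paralogs or, without strand, with antisense genes could not be separated.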

Additional observations from a re-analysis of the deposited data

Results flagged for a closer look

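The change with PE differed between the siNeg and siSlc25a26 backgrounds, by the interaction term on all 12 libraries, for 3 members and 9 partner genes. The log2 differences (siSlc25a26 minus siNeg) were -1.69 for Scn4b, 1.25 for Scn3b and -0.61 for Cacna2d2. Among sodium channel partners they were -0.75 for Fgf12 and -0.60 for Camk2d, among L-type partners -0.77 for Rrad and 1.18 for Stac2, and among pacemaker partners -1.21 for Adcy1 and 0.75 for Flna. Among conduction factors they were -1.04 for Gjd3, -1.03 for Gja5 and -0.65 for Irx3. The edgeR adjusted p-values ran from 1.37e-04 for Scn4b to 0.0468 for Adcy1. Groups of 3 libraries were not screened for outlying samples. Replicates were compared in pairs by a chi-square per gene, which was largest between replicates 1 and 3 in every group. It was 21.4 in siNeg.PE and 21.6 in siSlc25a26.PE, against 8.35 and 7.09 between replicates 1 and 2. Acta1 was at 3239, 2569 and 1599 CPM in siNeg.PE replicates 1, 2 and 3. What this spread contributed to the differences was not tested.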

How the results depend on the processing

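The counts of called members kept within 1.5 times of their main values except as follows. Without a fold threshold they were 16 for PE in siNeg, 13 for siSlc25a26 without PE and 14 under PE. With limma on log2(FPKM + 0.1) they were 3 without PE and 4 under PE, and on log2(FPKM + 1) 2 and 3. Leaving out 1 library gave 3 to 7 without PE (lowest without siSlc25a26 replicate 2), 4 to 6 under PE (lowest without siNeg.PE replicate 2) and 1 to 4 for the difference between PE effects (1 without siNeg.PE replicate 3 or siSlc25a26 replicate 1). The cause was not tested. The share of called genes that were higher in the difference between PE effects was 39.3% and on log2(FPKM + 0.1) 22.1%, with a median of -0.14. The replicate block gave 10, 6, 7, 12 and 3 calls for PE in siNeg, siSlc25a26 without and under PE, PE in siSlc25a26 and the difference. Whether equal numbers mark paired libraries was not settled. Correlations of same-numbered deviations ran from -0.0913 to 0.217, and not every library correlated best with its own number. For PE in siNeg they were 0.145, 0.00943 and 0.217, and each siNeg.PE library correlated best with its own number. For PE in siSlc25a26 they were -0.073, -0.00536 and -0.0391. The main fits did not model a shared replicate effect. No log2 fold change of a tested member turned from a call to the opposite sign. Of the values with 1 library left out, 875 kept their side of the threshold, 12 gained a call and 43 lost one; for the other alternatives these were 1066, 10 and 35. Shares within classes taken from CPM moved by over 1 SD in 44 cases and by less in 32. Depth limits the members with the fewest counts, namely Scn2a, Scn4a, Scn7a, Scn8a, Cacna1d, Cacna1i and Hcn3.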
